A study of Mus musculus with 2 samples.

Results

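The vascular genes described here were 10 genes of VEGF, angiopoietin, apelin, endothelin, adrenomedullin and nitric oxide signalling, chosen by name from the 32285 genes of the count tables. They are Vegfa, Flt1, Kdr, Angpt2, Tek, Apln, Esm1, Edn1, Adm and Nos3, and each symbol matched 1 gene. Single-cell RNA sequencing was done on 1 control kidney and 1 JPI-289 treated kidney of 9-week-old male C57BL/6 mice, both taken 24 h after bilateral ischemia-reperfusion injury. JPI-289 is an inhibitor of PARP, enzymes that add poly(ADP-ribose) to proteins and take part in DNA repair. The treated mouse was given 100 mg/kg into the peritoneal cavity just before reperfusion, and the control mouse was given saline at the same point, so both kidneys were injured and neither was a normal kidney. With 1 library for each condition there are no replicates. All differences below are therefore between these 2 libraries, no test between conditions was possible, and the 95% intervals cover counting error only.

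VEGF-A, encoded by Vegfa, is made by podocytes and tubule cells and acts on endothelial cells (ECs) through the receptor VEGFR2 (Kdr), while VEGFR1 (Flt1) binds and restrains it. Tie2 (Tek) is the endothelial receptor for angiopoietins and keeps vessels quiescent, and its antagonist angiopoietin-2 (Angpt2) is released by activated endothelium. Apelin (Apln) and endocan (Esm1) mark the tip cells that lead new sprouts. Endothelin-1 (Edn1) constricts vessels, adrenomedullin (Adm) and nitric oxide from endothelial nitric oxide synthase (Nos3) dilate them, and loss of peritubular capillaries is a known sequel of ischemic kidney injury.

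Cells were called from the raw counts, cells with over 50% mitochondrial UMIs were left out, and clusters were named from marker genes, with the 10 vascular genes kept out of the genes used for clustering. A UMI, or unique molecular identifier, tags 1 captured RNA molecule, and levels are given as counts scaled to 1000000 UMIs of a cell class (CPM), with exact Poisson intervals. The control library gave 3734 cells with a median of 2069 UMIs and the JPI-289 library 5025 cells with a median of 1872, and 30 called barcodes occurred in both libraries. EC-like cells numbered 496 and 565 with median UMIs of 1996 and 1999, podocyte-like cells 54 and 57, and proximal tubule (PT)-like cells 1780 and 1648. The PT-like clusters were nearly separate between the libraries, and 1 of the 3 EC-like clusters held 185 control and 3 JPI-289 cells. Doublets could not be identified, since the caller marked 3 of 8759 cells. The EC, podocyte and PT labels were given from marker genes, so detection of the same markers is no separate check. All 10 EC markers, 8 or 9 of 9 podocyte markers and all 13 PT markers were detected in the respective class in either library. PT-like cells of both libraries also had all 10 EC and all 9 podocyte markers detected, at low levels. Control podocyte-like cells had PT markers at 5891 CPM beside podocyte markers at 6060.

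The genes lie on 7 chromosomes of the mouse genome (GRCm38, the assembly also named mm10), and all are protein coding. Apln is on the X chromosome (chrX:48025146-48034853, minus strand), Esm1 and Edn1 are both on chromosome 13 (chr13:113209659-113218098 and chr13:42301476-42307990, plus strand), and Adm is on chromosome 7 (chr7:110627661-110629820, plus strand). Flt1 (chr5:147561604-147726011), Kdr (chr5:75932827-75978458) and Nos3 (chr5:24364810-24384474) share chromosome 5. Vegfa is at chr17:46016993-46032369, Angpt2 at chr8:18690263-18741562 and Tek at chr4:94739289-94874976. The windows from 250 bases before to 50 after the start are shown for 4 secreted factors of the list whose levels are compared between cell classes or EC-like clusters below, from RefSeq on GRCm38.p6: Apln (chrX:48034804-48035103, minus strand), Esm1 (chr13:113209409-113209708, plus strand), Edn1 (chr13:42301226-42301525, plus strand) and Adm (chr7:110627407-110627706, plus strand). Capitals mark ACGTG and GCGTG, the core letters bound by hypoxia-inducible factors, or their reverse complements CACGT and CACGC.
Apln: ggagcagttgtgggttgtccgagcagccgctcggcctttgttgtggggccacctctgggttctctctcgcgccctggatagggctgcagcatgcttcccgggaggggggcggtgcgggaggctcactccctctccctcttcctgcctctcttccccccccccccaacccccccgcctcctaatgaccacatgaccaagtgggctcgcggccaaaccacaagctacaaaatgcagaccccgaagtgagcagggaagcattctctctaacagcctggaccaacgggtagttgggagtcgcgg
Esm1: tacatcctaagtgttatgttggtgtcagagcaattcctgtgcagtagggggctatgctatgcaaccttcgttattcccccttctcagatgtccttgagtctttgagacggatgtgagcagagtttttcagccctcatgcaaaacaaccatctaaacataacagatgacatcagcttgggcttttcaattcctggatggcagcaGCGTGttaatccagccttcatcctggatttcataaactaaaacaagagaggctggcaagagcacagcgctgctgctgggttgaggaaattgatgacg
Edn1: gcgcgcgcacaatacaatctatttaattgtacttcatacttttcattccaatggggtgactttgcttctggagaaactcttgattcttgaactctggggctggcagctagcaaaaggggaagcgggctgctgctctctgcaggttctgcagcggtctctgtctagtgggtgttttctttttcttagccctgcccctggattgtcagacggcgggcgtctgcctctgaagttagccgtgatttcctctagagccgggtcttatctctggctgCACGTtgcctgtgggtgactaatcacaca
Adm: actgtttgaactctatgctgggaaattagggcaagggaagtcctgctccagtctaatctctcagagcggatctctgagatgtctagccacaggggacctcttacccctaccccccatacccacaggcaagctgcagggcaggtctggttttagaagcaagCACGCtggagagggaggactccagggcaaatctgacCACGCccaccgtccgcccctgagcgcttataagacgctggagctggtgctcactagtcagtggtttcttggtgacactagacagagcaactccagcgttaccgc
Windows were held for 8 of the 10 genes. Either core was found in 5 of these 8, namely Edn1 with ACGTG and Flt1, Kdr, Esm1 and Adm with GCGTG, and the window of Apln, like those of Vegfa and Tek, held neither. Over all 32851 windows of this length ACGTG was found in 19.6%, GCGTG in 32.4% and either in 43.8%, so a match is a common event and describes only these letters.

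Among named classes with at least 50000 UMIs, 8 of the 10 genes had their highest level in EC-like cells in both libraries, the exceptions being Vegfa and Adm. This count was 6 to 9 over the alternative settings, lowest with the first calling step alone. The share of all genes with their highest level in EC-like cells was not computed, so the count describes these genes only. Flt1 was at 1364 CPM in EC-like cells of the control kidney and 1318 in those of the JPI-289 treated kidney, and no other class of the nephron passed 45.1. The receptor gene Kdr was at 596 and 751 in EC-like cells and at most 67.6 in the others. Tek, Apln, Esm1, Angpt2 and Nos3 showed the same pattern, and so did Edn1. The next highest Edn1 levels were 48.9 in thin limb-like cells of the control kidney and 33.2 in collecting duct intercalated (CD-IC)-like cells of the treated kidney. The latter came from 6 UMIs in 1 of 60 cells. In neutrophil-like cells, a class that should lack these genes, 1.02% and 0.613% of cells had a Flt1 UMI at median depths of 1973 and 2035.5 UMIs, against 69.6% and 69.0% of EC-like cells.

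**Figure D1:**
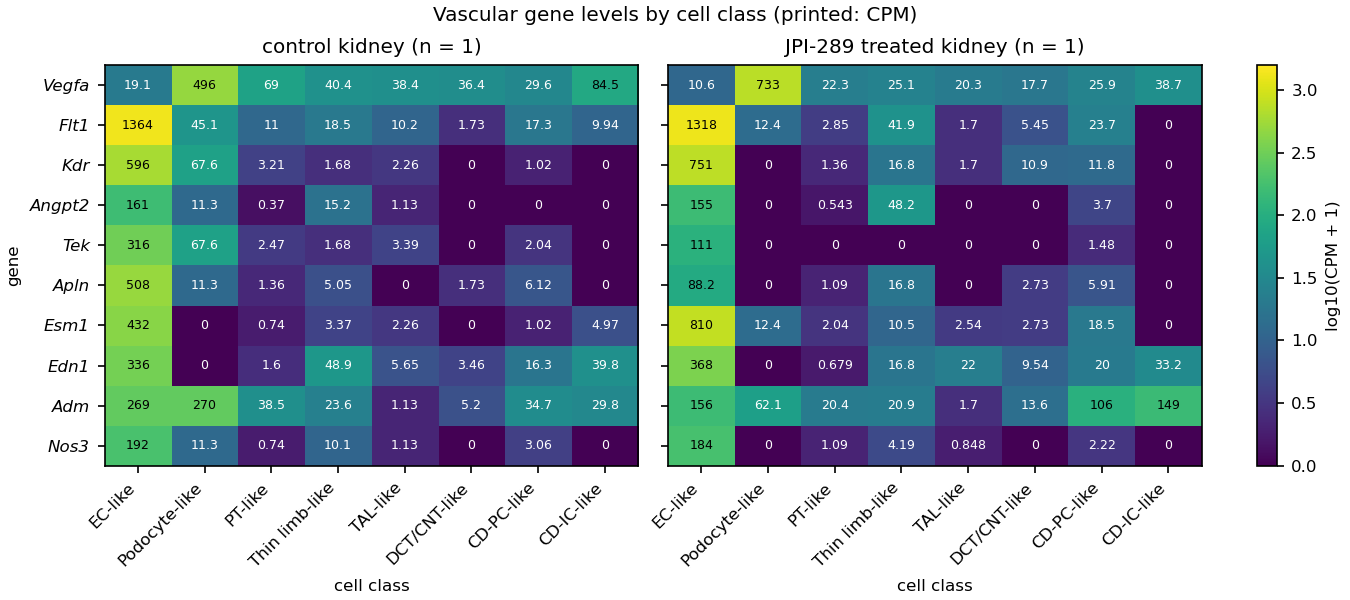
Level of each vascular gene (rows) in the 8 cell classes of vessel, glomerulus and nephron (columns) in the control and the JPI-289 treated kidney, with the colour on a log10 scale and the printed numbers in CPM. Most genes are bright in the EC-like column of both kidneys, such as Flt1 at 1364 and 1318, while Vegfa is brightest in podocyte-like cells at 496 and 733.

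Vegfa was highest in podocyte-like cells, at 496 CPM (360 to 665) in the control and 733 (558 to 945) in the treated kidney. In the control kidney CD-IC-like cells (84.5, 49.2 to 135) and PT-like cells (69.0, 63.4 to 75.0) came next, and these neighbours did not differ beyond counting error. Adm had no single leading class. In the control kidney podocyte-like cells (270, 173 to 402) and EC-like cells (269, 246 to 293) were level, and in the treated kidney EC-like cells (156, 138 to 176) and CD-IC-like cells (149, 98.3 to 217) were.

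In EC-like cells, Apln and Tek were the 2 of the 10 genes that differed by at least 2-fold, and both were lower in the JPI-289 treated kidney. All 10 genes passed the minimum of 20 UMIs over both libraries. Of all 9654 genes that passed it in EC-like cells, 18.3% were at least 2-fold lower and 5.28% at least 2-fold higher in the treated kidney, 23.6% together, and the median log2 ratio of all genes was −0.17. The share of members past 2-fold, 2 of 10, was thus close to that of all genes.

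Apln had 984 UMIs in EC-like cells of the control kidney and 150 in those of the treated kidney, or 508 and 88.2 CPM. This is a 5.75-fold lower level (log2 ratio −2.52, 95% interval −2.78 to −2.28). The share of EC-like cells with an Apln UMI was 18.3% in the control and 8.14% in the treated kidney, and after thinning to 1000 UMIs per cell, which left out 140 and 195 shallower cells, 15.7% and 5.68%. In PT-like cells the thinned share was 0.150% and 0.174%. Tek, the Tie2 receptor, was at 316 CPM (611 UMIs) and 111 (189 UMIs), a log2 ratio of −1.50 (−1.75 to −1.27). Its share of cells after thinning was 28.7% and 12.97%.

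The VEGF receptors stood apart from Tek. Flt1 was at 1364 and 1318 CPM, with a log2 ratio of −0.05 (−0.13 to 0.03) that turned to 0.12 when ratios were centred on the median of all genes. Kdr, the main signalling receptor of VEGF-A, was at 596 in the control and 751 in the treated kidney, a log2 ratio of 0.33 (0.22 to 0.45), which is far under 2-fold. Vegfa itself was scarce in EC-like cells, with 37 and 18 UMIs, or 19.1 and 10.6 CPM. This was below its level in barcodes of 100 to 300 UMIs, taken as free RNA (55.6 and 39.3 CPM). The log2 ratio of −0.83 became −1.02 when this free RNA was subtracted. It became −4.11 with the free RNA of barcodes under 100 UMIs.

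Esm1, the gene of endocan, was the member with the largest ratio in the other direction. It had 836 and 1377 UMIs in EC-like cells, or 432 and 810 CPM, 1.88-fold higher in the treated kidney (log2 ratio 0.91, 0.78 to 1.03). The thinned share of EC-like cells with an Esm1 UMI was 21.1% in the control and 36.5% in the treated kidney. Esm1 stayed under 2-fold in the calculation as planned, passed it with the first calling step alone (1.23) and when ratios were centred on the median of all genes (1.08), and was at 0.38 over the clusters that held cells of both libraries.

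Among the genes of vessel tone, Edn1 was at 336 and 368 CPM in EC-like cells (log2 ratio 0.13, −0.03 to 0.29), and the ratio turned to −0.33 with the first calling step alone. Adm was at 269 and 156, a log2 ratio of −0.78 (−0.998 to −0.564). Nos3 was at 192 and 184, and the angiopoietin-2 gene Angpt2 at 161 and 155, and both intervals of the log2 ratio included 0. Centring turned the signs of Nos3 and Angpt2. A few cells held much of these secreted factors: the 5 EC-like cells with most Edn1 UMIs carried 63.9% of them in the control and 43.2% in the treated kidney, and for Flt1 the same figure was 10.2% and 9.01%. The figure was 54.3% and 30.8% for Angpt2, 46.0% and 35.0% for Adm, and 25.5% and 44.7% for Apln. The levels of Edn1, Angpt2 and Adm, and that of Apln in the treated kidney, thus rest on few cells, and the Poisson intervals do not cover the spread between cells.

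**Figure D2:**
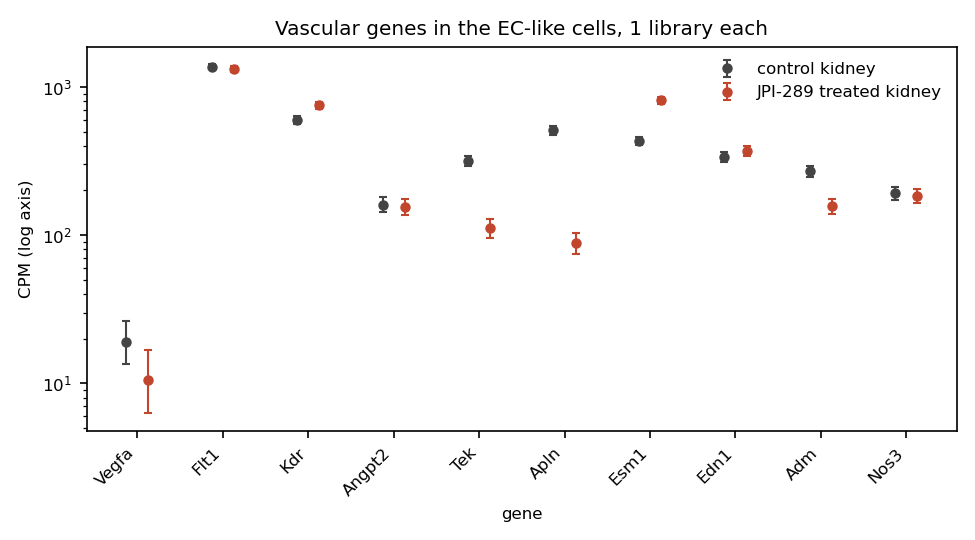
Levels of the 10 genes in EC-like cells of the control kidney (dark) and the JPI-289 treated kidney (red) in CPM on a log axis, with points for the 1 library of each condition and bars for the exact 95% Poisson interval. Apln (508 and 88.2) and Tek (316 and 111) sit clearly lower in the treated kidney, Esm1 (432 and 810) higher, and Flt1, Angpt2 and Nos3 nearly level.

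Markers of other cells moved with the library inside the EC-like class. Hemoglobin and other red cell markers were at 111 CPM in the control and 966 in the treated kidney with all 5 markers detected in both, the 7 mural markers at 281 and 72.9, and the PT markers at 1676 and 984, with 13 and 11 of 13 detected. The 10 EC markers summed to 13511 and 10007. Free RNA, estimated from PT markers in barcodes of 100 to 300 UMIs, made up 11.9% and 11.6% of the class. With barcodes under 100 UMIs, the planned choice, the estimate was 16.0% and 17.5%. The part of these in the ratios was not tested, other than by the subtraction of free RNA, under which Apln and Tek stayed at least 2-fold lower.

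The 3 EC-like clusters gave a different picture of the receptors and the ligands. Cluster 6 held 219 control and 246 JPI-289 cells of low depth, cluster 8 held 92 and 316 cells, and cluster 18 held 185 and 3. Cluster 18, the control cluster, was led by Plvap and other genes, and its peritubular and ascending vasa recta markers summed to 11321 CPM, against 1304 in control cells of cluster 8. It carried most of the Tek and little of the Apln: Tek was at 552 CPM in its control cells, 173 in those of cluster 6 and 79.4 in those of cluster 8, whereas Apln was at 69.5, 304 and 1151 in the same order. Edn1 (25.4, 67.3 and 846) and Adm (53.0, 73.7 and 626) followed the order of Apln. Kdr was at 1035 in cluster 18, 266 in cluster 6 and 185 in cluster 8. In the control kidney the receptor-rich and the ligand-rich ECs were thus largely in different clusters. These genes were kept out of clustering, but genes with similar levels were not. Cd300lg and Exoc3l2, among the leading genes of cluster 18, correlated with Tek over cell classes (r = 0.986 and 0.979). The split is therefore not independent of the members.

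Within cluster 8, 6 of the 10 genes passed 2-fold. Of all 8127 genes measured there, 8.58% were at least 2-fold higher and 14% at least 2-fold lower. Kdr was at 185 CPM (155 to 220) in control and 808 (762 to 856) in treated cells, a log2 ratio of 2.12. Flt1 was at 672 and 1373, a log2 ratio of 1.03 (0.89 to 1.18). The ligands went the other way. Apln was at 1151 and 84.9, 13.5-fold lower (log2 ratio −3.76, −4.05 to −3.49), Adm at 626 and 175 (−1.84) and Edn1 at 846 and 411 (−1.04, −1.21 to −0.87). The intervals of Flt1 and Edn1 thus reached under 2-fold. Vegfa was at 27.9 and 9.66 (−1.51), from 20 and 14 UMIs and below its level in free RNA. Cluster 8 held 607 of the 651 Edn1 UMIs of control EC-like cells. As 5 cells carried 416 of the 651, the control level of Edn1 rests on few cells. Angpt2 was at 347 and 175, just under 2-fold, Esm1 at 744 and 823, and Tek at 79.4 and 120. The cells compared were not of one vessel type, since the summed glomerular EC markers of cluster 8 were at 350 in the control and 1769 in the treated kidney, the peritubular and ascending vasa recta markers at 1304 and 2806, and the arterial and descending vasa recta markers at 1909 and 1576. The part of this in the ratios was not tested.

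Cluster 6 held shallower cells, with a median of 864 and 746.5 UMIs. Here 9 of the 10 genes reached 20 UMIs and 3 passed 2-fold, against 11.3% of 4284 genes higher and 12% lower. Apln was at 304 and 112 CPM (log2 ratio −1.42, −2.11 to −0.81) and Tek at 173 and 54.1 (−1.64, −2.67 to −0.78). Esm1 was at 359 and 766 (1.09, 0.75 to 1.45). The vessel markers of cluster 6 also differed, with the peritubular and ascending vasa recta list at 3127 in the control and 1016 in the treated kidney, the glomerular list at 266 and 608, and the arterial and descending vasa recta list at 272 and 246, and their part in the ratios was not tested. Kdr was under 2-fold higher here (0.62, 0.18 to 1.06). In the planned clustering Apln was therefore lower in the treated kidney in both clusters that held cells of both libraries. Kdr was higher in both, and Tek was lower in one and higher in the other. Edn1 and Nos3 also differed in sign. In cluster 6 their log2 ratios were 0.78 (−0.08 to 1.68) and 0.42 (−0.31 to 1.16), with intervals that included 0. In cluster 8 they were −1.04 and −0.45. Edn1, Esm1 and Apln were themselves among the leading genes of cluster 8. The clusters also depended on the settings. With at least 1000 UMIs per cell the EC-like clusters held 180 control and 176 treated cells, 1 and 191, and 181 and 2. Kdr and Flt1 were among the leading genes of the cluster of 1 and 191 cells. Ratios inside those clusters were not computed.

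Over clusters 6 and 8 together, an alternative chosen after the data were seen, 4 of the 10 genes passed 2-fold, against 8.01% of 8822 genes higher and 14.7% lower. Kdr was then at 210 and 751 CPM (log2 ratio 1.84), Apln at 894 and 88.8 (−3.33), Adm at 458 and 157 (−1.55), and Vegfa at 28.2 and 10.7 (−1.39). The Vegfa levels were again below those in free RNA. Flt1 was at 684 and 1325 (0.95, 0.83 to 1.08), Edn1 at 610 and 369 (−0.72, −0.89 to −0.56) and Angpt2 at 261 and 155 (−0.75, −1.003 to −0.501), so that these 3 genes, close to level in the whole class, were not level here. Tek was at 108 and 111 with a log2 ratio of 0.04 (−0.31 to 0.39), a sum of the opposite directions in clusters 6 and 8. The ratio of Edn1 also sums opposite signs in clusters 6 and 8, though its interval in cluster 6 included 0. Leaving out cluster 18, a control cluster with Tek among its 10 leading genes, lowers the control level of Tek by construction. The ratio of Tek thus depended on which clusters were compared. The same holds for the VEGF receptors, since cluster 18 held 938 of 1154 control Kdr UMIs and 1936 of 2640 control Flt1 UMIs. Over the whole class the log2 ratios of Kdr and Flt1 were 0.33 and −0.05. The lower level of Apln was larger without cluster 18, whose Apln level was low.

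**Figure D3:**
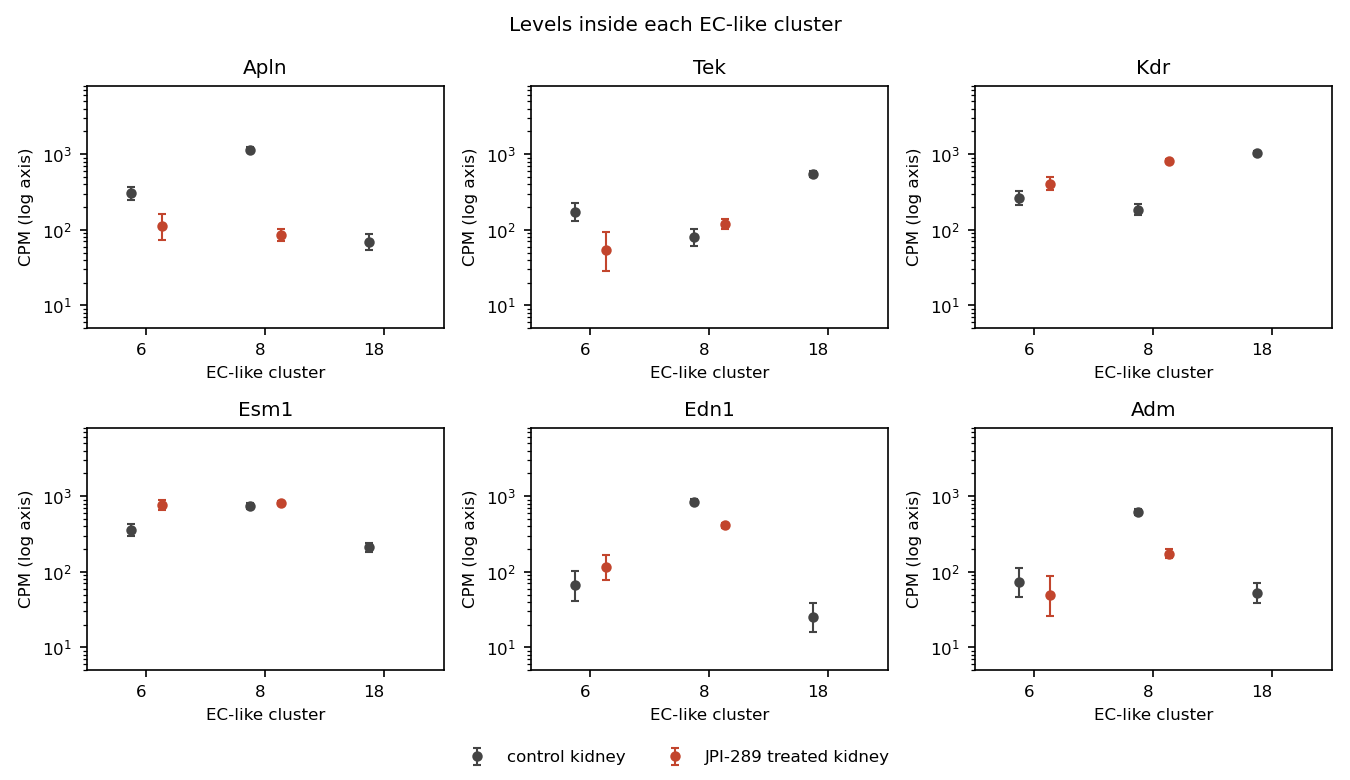
Levels of 6 genes in each EC-like cluster of the control kidney (dark) and the JPI-289 treated kidney (red), in CPM on a log axis, with exact 95% Poisson intervals and 1 library for each condition, and without the 3 treated cells of cluster 18. Apln is lower in the treated kidney in both clusters that hold cells of both libraries (304 and 112 in cluster 6, 1151 and 84.9 in cluster 8), and control cells of cluster 18 have the highest Tek (552) and Kdr (1035).

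In podocyte-like cells only Vegfa and Adm reached 20 UMIs. Vegfa had 44 UMIs in 54 control cells and 59 in 57 treated cells, with a log2 ratio of 0.56 whose interval (−0.02 to 1.16) included 0. Adm had 24 and 5 UMIs, or 270 and 62.1 CPM, 4.04-fold lower in the treated kidney (log2 ratio −2.01, −3.87 to −0.70). Of the 1295 genes measured in this small class, 22.5% were at least 2-fold lower and 25.1% at least 2-fold higher, 47.6% together, so 1 of 2 past 2-fold is near that background. In the same cells the EC markers were at 901 CPM in the control, with all 10 detected, and 149 in the treated kidney, with 5 detected, and the PT markers were at 5891 and 1888. Free RNA made up an estimated 41.7% and 22.3% of the class from barcodes of 100 to 300 UMIs. From barcodes under 100 UMIs, the planned choice, the estimate was 56.3% and 33.6%. The ratio of Vegfa turned negative with at least 1000 UMIs per cell (−0.90), with at most 20% mitochondrial UMIs (−0.997) and at a coarser clustering (−1.03), where 10 to 17 control podocyte-like cells were left, and its direction is therefore not settled by these libraries. Adm stayed lower but under 2-fold in the same 3 settings, with log2 ratios of −0.63, −0.76 and −0.46 in that order.

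In the tubule classes Vegfa was lower in the JPI-289 treated kidney in all 6 classes, and the interval of the log2 ratio lay below 0 in 2 of them, PT-like and thick ascending limb (TAL)-like cells. PT-like cells had 560 Vegfa UMIs in the control and 164 in the treated kidney, or 69.0 and 22.3 CPM, a log2 ratio of −1.63 (−1.89 to −1.38). Of 11318 genes measured in PT-like cells 23.5% were at least 2-fold lower and 9.07% at least 2-fold higher, 32.5% together, and of the 6 members measured there 4 were lower and 1 higher. In TAL-like cells Vegfa was at 38.4 and 20.3 (−0.91, −1.73 to −0.12). The distal convoluted and connecting tubule (DCT/CNT)-like cells were at 36.4 and 17.7, CD-IC-like cells at 84.5 and 38.7, thin limb-like cells at 40.4 and 25.1, and collecting duct principal (CD-PC)-like cells at 29.6 and 25.9, each with an interval that included 0. In free RNA of barcodes of 100 to 300 UMIs Vegfa was at 55.6 CPM in the control and 39.3 in the treated library. Every tubule class of the treated kidney was below that level. In the control only PT-like and CD-IC-like cells were above it. With free RNA subtracted the log2 ratio in PT-like cells was −1.74, or −1.75 with barcodes under 100 UMIs. For the other tubule classes the part of free RNA was not tested.

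Part of the Vegfa of the control PT-like cells was in cluster 14, which had no treated cell. Its 213 cells had a Vegfa level of 296 CPM (258 to 338), and Slc5a12, a transporter of the early PT, led its genes together with nuclear RNAs. The other large control clusters 1, 5 and 17 were at 22.8, 57.2 and 48.8, and the treated clusters 0, 9 and 13 at 22.4, 25.8 and 17.9. The treated clusters also carried the injury markers, Havcr1 and Krt20 among them, at 7079 to 10327 CPM for the list, against 805 to 1337 in the large control clusters. Without cluster 14 Vegfa in PT-like cells was at 45.9 and 22.3 (−1.04, −1.32 to −0.77).

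Adm differed in direction along the nephron. In PT-like cells it had 312 and 150 UMIs, or 38.5 and 20.4 CPM (log2 ratio −0.91, −1.21 to −0.63), which is under 2-fold. In CD-PC-like cells it had 34 and 144 UMIs, or 34.7 and 106, 3.03-fold higher in the treated kidney (1.60, 1.07 to 2.20). The 144 UMIs were spread over 81 cells, and the share of cells with an Adm UMI was 21.8% in the control and 21.3% in the treated kidney. After thinning it was 4.29% (3 of 70 cells, 0.893 to 12.0) and 12.98% (9.70 to 16.9), intervals that overlap. The classes differed in depth, with a median of 9497 UMIs in 78 control cells and 1541 in 381 treated cells, and red cell markers were at 12.2 and 1049 CPM. With at least 1000 UMIs per cell the class split into a cluster of 3 control and 275 treated cells and another of 91 and 114. Whether these took part in the difference was not tested. The shares of all genes past 2-fold in CD-PC-like cells were 8.83% higher and 13.8% lower. In CD-IC-like cells the ratio of Adm was 2.23 with 6 and 27 UMIs, but 1 cell held 17 of the 27, the ratio fell to 0.68 with at least 1000 UMIs per cell, and the shares of all genes were 13.8% higher and 8.82% lower.

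**Figure D4:**
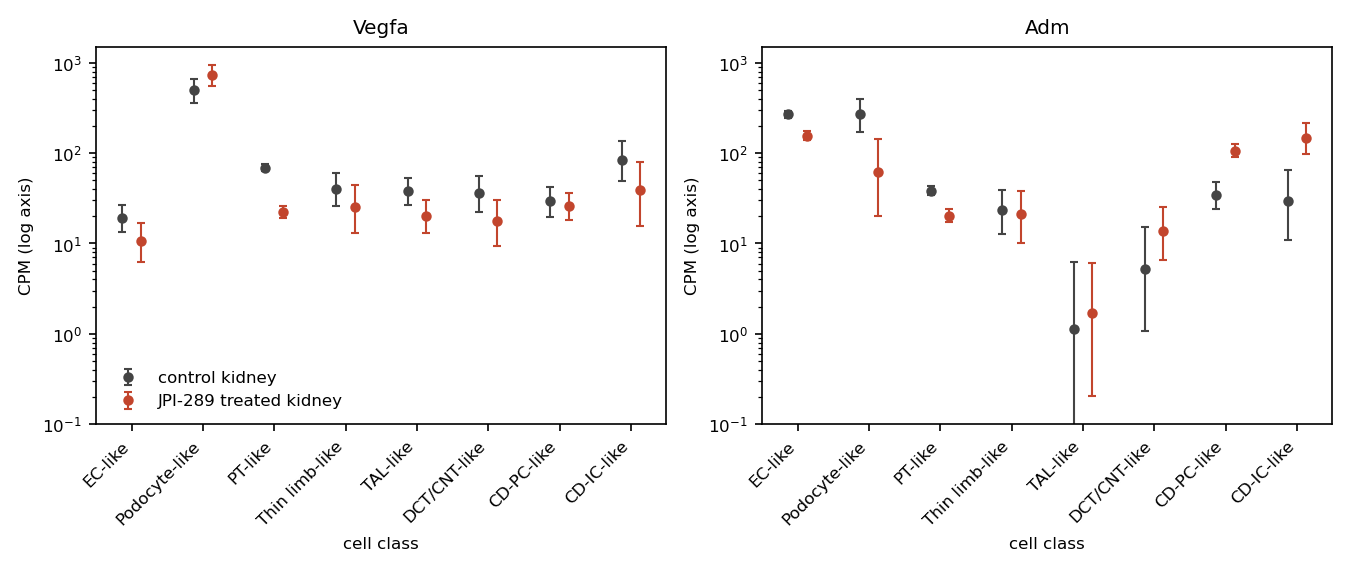
Levels of Vegfa (left) and Adm (right) in CPM on a log axis in 8 cell classes of the control kidney (dark) and the JPI-289 treated kidney (red), with exact 95% Poisson intervals and 1 library for each condition. Vegfa is lower in the treated kidney in the tubule classes, such as 69.0 and 22.3 in PT-like cells, whereas Adm is higher in CD-PC-like cells, 34.7 and 106, and lower in podocyte-like cells, 270 and 62.1.

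Edn1 also had levels outside the endothelium, as is known for the kidney, where collecting duct endothelin-1 restrains sodium uptake. CD-PC-like cells had 16 and 27 Edn1 UMIs, or 16.3 and 19.96 CPM. In the treated kidney 5 of these cells carried 66.7% of the UMIs, and the EC markers of the class were at 96.9 and 200 CPM. TAL-like cells had 5 and 26 UMIs, with a log2 ratio of 1.86 (0.56 to 3.70), and 8.14% of all genes there were at least 2-fold higher and 11% lower, 19.1% together. Thin limb-like cells had 29 and 8 UMIs, a log2 ratio of −1.48 (−2.88 to −0.38), beside 9.58% of all genes higher and 12.5% lower. These ratios rest on few molecules.

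In all, 21 of the 60 pairs of a gene and a tubule class reached 20 UMIs, of which 7 were at least 2-fold higher and 7 at least 2-fold lower in the treated kidney. Some pairs reached 20 UMIs only through 1 library, such as Tek in PT-like and Esm1 in CD-PC-like cells below. The intervals of Vegfa in DCT/CNT-like and CD-IC-like cells included 0. With a minimum of 100 UMIs, 3 pairs were past 2-fold. The share of all genes past 2-fold in either direction was 17.5% to 32.5% over the 6 tubule classes, lowest in DCT/CNT-like and highest in PT-like cells. It is not a like-for-like measure for pairs of so few UMIs. Most of the remaining pairs were of endothelial genes at low levels. In PT-like cells Flt1 was at 11.0 and 2.85 CPM and Kdr at 3.21 and 1.36. Tek had 20 UMIs in the control and 0 in the treated kidney, and the upper limit of its log2 ratio was −2.16. The control level was 6.05-fold that of 3 UMIs in the treated kidney, a figure that leaves out the counting error of the control. The EC markers of PT-like cells moved the same way, from 47.3 in the control to 17.0 in the treated kidney, with all 10 detected in both. Esm1 was higher in PT-like cells (6 and 15 UMIs, log2 ratio 1.39, 0.01 to 3.12) and in CD-PC-like cells (1 and 25 UMIs, 3.62, 1.57 to 9.54). In the latter 76.0% of the UMIs were in 5 cells, and EC markers were at 96.9 and 200. In thin limb-like cells Flt1 (11 and 20 UMIs, 1.15) and Angpt2 (9 and 23 UMIs, 1.62) were higher, beside EC markers at 157 and 283. These Flt1 UMIs were in 9 control and 4 treated cells. In DCT/CNT-like cells Vegfa was the only member measured, and 7.88% of all genes were higher and 9.6% lower. The part of endothelial RNA in these ratios was not tested.

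Of 65 other genes on 8 lists of the same pathways, 47 were measured in EC-like cells, of which 4 were at least 2-fold higher and 3 at least 2-fold lower in the treated kidney. This count of 7 in 47 stands beside 23.6% of all genes in EC-like cells, 5.28% higher and 18.3% lower, which also hold for each list below. Among VEGF ligands and receptors 2 of 6 measured genes were lower and none higher, with a median log2 ratio of −0.43. They were Pgf, the placental growth factor that binds VEGFR1, at 106 and 28.8 CPM (−1.87), and Nrp1, a VEGF co-receptor, at 124 and 45.9 (−1.43). Flt4, the receptor of VEGF-C, was at 118 and 129, and Nrp2 at 133 and 87.6. Tie1, the partner of Tek, was the 1 measured gene of the angiopoietin and apelin list, at 357 and 252 (−0.50).

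Of the endothelin list 2 genes were measured and none passed 2-fold. The endothelin receptor gene Ednrb, through which ECs clear endothelin-1 and release nitric oxide, was at 583 and 1092 CPM (0.91), and the converting enzyme gene Ece1 at 343 and 350. In the adrenomedullin list 0 of 4 measured genes passed 2-fold. The receptor subunits differed in direction, with Ramp2 at 1088 and 686 (−0.66) and Ramp3 at 462 and 696 (0.59), and the scavenger receptor gene Ackr3 was at 32.0 and 58.2 (0.86). In the nitric oxide list 1 of 5 measured genes was higher, Arg2 with 12 and 23 UMIs. Cav1, which holds the synthase inactive, was at 125 and 69.4 (−0.84), and Ddah1 and Ddah2, which degrade an inhibitor of nitric oxide synthases, were at 94.5 and 49.4 and at 147 and 103.

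The sprouting list had 7 measured genes and none past 2-fold. Cd34, a surface marker of tip cells and vessels, was at 416 and 224 CPM (−0.90), Pdgfb, which recruits pericytes, at 123 and 78.8, and Mcam at 195 and 224. Of the 10 shear and activation genes, Selp was higher at 39.8 and 80.6 (1.01) and Icam2 lower at 281 and 81.8 (−1.78). Selp encodes P-selectin, which captures leukocytes, and Icam2 is an adhesion molecule of resting endothelium. Klf2, the shear-induced factor, was at 2169 and 2047, and Thbd at 604 and 444. Among hypoxia-inducible genes 2 of 12 were higher and none lower, with a median log2 ratio of 0.34 beside −0.17 for all genes. Ddit4, a stress-induced inhibitor of mTORC1, was at 195 and 884 (2.18), and Pfkfb3, a glycolysis regulator of sprouting ECs, at 25.8 and 80.6 (1.63). Epas1, which encodes a hypoxia-inducible factor itself and counts in this median, was at 488 and 658.

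In PT-like cells the hypoxia-inducible list had 1 gene higher and 7 lower of 14 measured, with a median log2 ratio of −0.67 beside −0.19 for all genes. Bnip3, a mitophagy receptor, was at 212 and 102 CPM (−1.05), Egln3 at 7.40 and 1.63 (−2.13) and P4ha1 at 21.3 and 6.25 (−1.76), whereas Ndrg1, the most abundant, was at 1771 and 2239 (0.34). Genes of the list went both ways, with positive ratios also for Egln1 (0.64), Kdm3a (0.80) and Ddit4 (0.17). Slc2a1, a glucose transporter gene, was the 1 gene at least 2-fold higher (1.14). Hif1a (0.49) was positive too, but it and Epas1 encode hypoxia-inducible factors themselves, and both count in the median. The 7 of 14 lower stand beside 23.5% of all genes in these cells. Of the other lists, Ackr3 was at 51.0 and 5.03 (−3.33), Angpt1, the activating ligand of Tie2, at 7.64 and 0.679 (−3.37), and Icam1 at 34.1 and 7.47 (−2.18). Arg2 was at 21.8 and 171 (2.97) and Gch1, which makes the cofactor of nitric oxide synthases, at 2.71 and 33.4 (3.59). Unc5b, a guidance receptor, was at 2.96 and 9.38 (1.64), Procr, the protein C receptor gene, at 1.60 and 9.92 (2.59), and Ece1 at 11.8 and 4.76 (−1.30). The guanylate cyclase gene Gucy1a1 had 59 and 2 UMIs (−4.43, −7.82 to −2.83), beside mural markers at 18.4 and 4.62. Each PT-like cluster held at most 20 cells of the other library, so these ratios compare separate clusters.

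**Figure D5:**
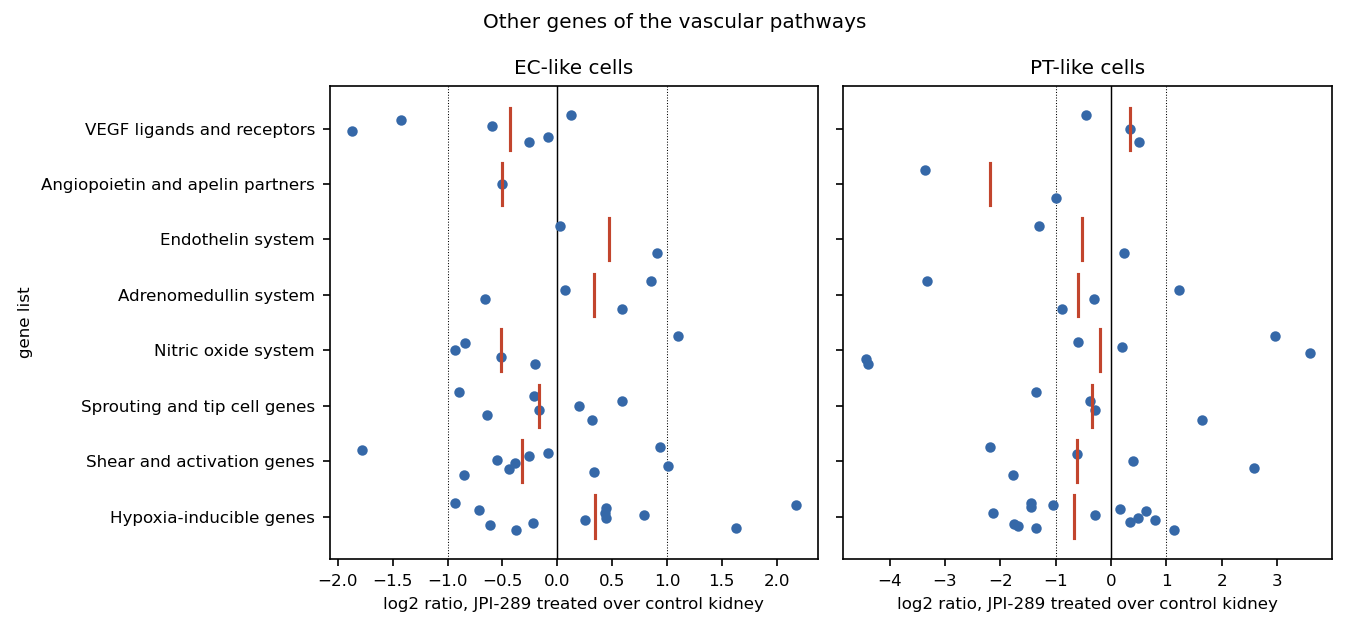
Log2 ratios (JPI-289 treated over control kidney, horizontal axis) of the measured genes on 8 pathway lists in EC-like cells (left) and PT-like cells (right), with 1 blue point for each gene, a red bar for the list's median and dotted lines at 2-fold. The hypoxia-inducible genes have a median of 0.34 in EC-like and −0.67 in PT-like cells.

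In CD-PC-like cells, where Adm was higher, both measured genes of the endothelin list were also at least 2-fold higher in the treated kidney, beside 8.83% of all genes. Ednrb was at 17.3 and 51.0 CPM (1.52) and Ece1 at 24.5 and 62.8 (1.34). Ramp3 was at 13.3 and 48.1 (1.81). Ednrb and Ramp3 are abundant in EC-like cells, the EC markers of CD-PC-like cells were at 96.9 and 200, and their part in these ratios was not tested. Apela, a ligand of the apelin receptor known in the collecting duct, was lower, at 124 and 16.3 (−2.91). In podocyte-like cells 3 genes of the lists were measured. Ddit4 had 3 and 40 UMIs, a log2 ratio of 3.67 (2.23 to 6.22), Klf2 13 and 25 UMIs, and Ndrg1 70 and 34.

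Over 12 cell classes in both libraries, 24 points that share their libraries, the genes with levels most like each member were largely known endothelial genes. The most similar were Arhgef15 for Tek (Pearson r = 0.994), Robo4 for Nos3 (0.989), Fgd5 for Kdr (0.979), Plvap for Flt1 (0.975), Col13a1 for Esm1 (0.974), Bcl6b for Apln (0.965), Fkbp10 for Angpt2 (0.951) and Rapgef5 for Edn1 (0.936). Vegfa was most like Gas1 (0.910), and Adm had the lowest value, 0.833 with Efnb1. For the members highest in EC-like cells the correlations rest mainly on the contrast of that class with the rest. This does not hold for Vegfa, which was highest in podocyte-like cells, or for Adm, which had no single leading class.

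Summed over all barcodes of a library, with no calling of cells, the members differed in the directions seen in EC-like cells. These sums include the EC-like cells, which in the control held 984 of 1241 Apln UMIs, 611 of 844 for Tek and 836 of 1006 for Esm1. For such genes the sums are therefore no separate check. For Vegfa and Adm the EC-like cells held 37 of 1980 and 520 of 1502 control UMIs. Apln was at 32.4 CPM in the control and 7.12 in the treated library, Tek at 22.0 and 6.27, and Esm1 at 26.2 and 49.7. Vegfa was at 51.7 and 35.6, Adm at 39.2 and 27.5, Kdr at 39.3 and 45.5 and Edn1 at 22.5 and 24.1. In such sums fewer cells of a type and less RNA per cell cannot be told apart.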

How the data were processed

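Single-cell RNA sequencing of 1 control and 1 JPI-289 treated mouse kidney (10x 5′ chemistry) was analysed. The authors deposited raw counts of UMIs per gene for all 737280 listed barcodes of each library, made with Cell Ranger 5.0.1 on mm10 per the labels, with no cells called. Totals were 38328760 UMIs (control) and 35548396 (JPI-289).

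Cells were called by total UMIs (over 3338 and 2618) and, from 500 UMIs, by the difference from empty droplets (10000 simulations, false discovery rate 0.01). Cells with over 50% mitochondrial UMIs were left out (540 and 396). Counts were scaled to 10000 per cell and clustered on 2000 variable genes, 30 components and 20 neighbours by Leiden at resolution 1, without the members and pathway genes. A cluster took the class whose markers led it. UMIs were summed per class and library, and the log2 ratio was taken after adding 0.5 UMI, with a Clopper-Pearson interval. Genes needed 20 UMIs over both libraries, and past 2-fold meant a log2 ratio of at least 1 or at most −1. Intervals cover counting error only, since 1 library per condition allows no test. Counts were also simulated with the Poisson error that the intervals assume. For EC-like cells (200 of 8556 genes changed 4-fold) the intervals held 96.5% of the true ratios of changed genes. Of the changed genes 99.5% passed 2-fold, beside 1.66% of unchanged genes. For podocyte-like cells (550 genes) these values were 96.0%, 97.5% and 10.3%. No spread between cells or mice was simulated, so these shares do not carry over to the real libraries.

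The members and gene lists were chosen with earlier results of these data known. The genes named are all members, in EC-like cells and in part in other classes the genes of each list by rule (the 2 with most UMIs and the 2 with the largest ratio among those with at least 50 UMIs), and the 3 genes most like each member, of which the first is given. Arg2 in EC-like cells, and Hif1a, Egln1, Kdm3a, Ddit4 and Slc2a1 in PT-like cells, were named outside this rule after their values were seen. Alternatives were other cell calling, depth, mitochondrial, doublet, clustering, scaling, weighting, free RNA, gene minimum and added count settings, and 3 chosen after seeing the data (free RNA from barcodes of 100 to 300 UMIs, EC-like clusters of both libraries only, and PT-like cells without cluster 14). Clustering ran in scanpy 1.11.5 with leidenalg 0.10.2, and intervals were computed with scipy 1.17.1 under Python 3.11.15.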

Additional observations from a re-analysis of the deposited data

Results flagged for a closer look

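Some members were past 2-fold in one direction in a cell class and in the opposite direction in another, with counting intervals that did not include 0. The differences between the classes were not tested, as there is 1 library per condition. The log2 ratio of Flt1 was 1.15 in thin limb-like cells and −1.92 in PT-like cells, with levels far below that in EC-like cells. The share of thin limb-like cells with a Flt1 UMI went the other way, 15.3% (9 of 59) in the control and 6.35% (4 of 63) in the treated kidney. In PT-like cells 5 cells held 49.4% and 57.1% of the Flt1 UMIs. Neither ratio was recomputed in the alternative settings. For Edn1 it was 1.86 in TAL-like cells and −1.48 in thin limb-like cells, each from under 40 UMIs, and the latter was −0.63 with each cell weighted equally. For Adm it was 1.60 in CD-PC-like cells and 2.23 in CD-IC-like cells, and −2.01 in podocyte-like cells. The ratio in podocyte-like cells was under 2-fold with at least 1000 UMIs per cell (−0.63), with at most 20% mitochondrial UMIs (−0.76) and at a coarser clustering (−0.46), and that in CD-IC-like cells with at least 1000 UMIs per cell (0.68).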

How the results depend on the processing

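No paired analysis was possible because each condition has 1 library and the labels give no replicate numbers. Over 19 ratios of single genes and their alternatives, 200 of 234 values stayed inside the counting interval of the planned value, 33 lay outside it, and 1 ratio past 2-fold as planned changed sign, that of Tek in EC-like cells, which was 0.036 over the EC-like clusters of both libraries. Counting ratios under 2-fold too, the sign changed in 13 values of 6 ratios (Flt1, Angpt2, Tek, Edn1 and Nos3 in EC-like cells and Vegfa in podocyte-like cells). Adm lost 2-fold in podocyte-like cells in 3 settings (−0.76 to −0.46) and in CD-IC-like cells with at least 1000 UMIs per cell (0.68), and Edn1 in thin limb-like cells with each cell weighted equally (−0.63). Apln in EC-like cells was at least 2-fold lower in all 13 alternatives run for it (−3.33 to −1.80), Tek in 12 of 13, and Vegfa in PT-like cells in all 13 (−1.75 to −1.04). In EC-like cells 5 of the 10 members kept their sign in every alternative. The number of members past 2-fold in EC-like cells was 4 of 10 over the EC-like clusters of both libraries, and that of the 65 pathway genes there was 13. How many of the 65 reached 20 UMIs there was not counted. Of all genes measured over these clusters 8.01% were at least 2-fold higher and 14.7% at least 2-fold lower. With a minimum of 1 UMI per gene, 15 pathway genes and 6258 genes in all passed 2-fold in EC-like cells, 7682 in PT-like cells, 8 members in podocyte-like cells and 32 pairs of member and tubule class. Shares of all genes were not computed at this minimum, where a few UMIs can pass 2-fold, so these counts describe the setting only. With a minimum of 100 UMIs the numbers were 799, 2396, 0 and 3 for all genes in EC-like cells, all genes in PT-like cells, members in podocyte-like cells and tubule pairs. No member passed 2-fold in podocyte-like cells with at least 1000 UMIs per cell (0) or at most 20% mitochondrial UMIs (0). The tubule pairs fell to 8 with the first calling step alone, which left no podocyte-like cluster, and to 7 at resolution 0.5, where some classes had no cluster of their own. Depth limits the podocyte-like class most, with 88778 and 80507 UMIs.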

Other observations

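Cells outside the named classes also carried members of these pathways. A stromal cluster led by Ren1, Acta2 and Col3a1, of 160 control and 102 JPI-289 cells, had Flt1 at 105 and 154 CPM and Vegfa at 78.7 and 70.5. In this cluster Ednrb was at 182 and 448, Ednra at 31.2 and 20.1, Gucy1a1 at 215 and 85.6, and Adm at 10.4 and 73.0 from 9 and 29 UMIs. Genes highest in EC-like cells were found in it too, with Kdr at 41.6 and 42.8, Tek at 33.5 and 2.52, Nos3 at 33.5 and 15.1 and Esm1 at 5.78 and 98.2. With the first calling step alone a mural cluster led by Ren1 had the EC markers Sox17 and Cldn5 among its leading genes. The part of endothelial RNA in these levels was not tested. These genes were chosen after their values were seen.

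A cluster led by the nuclear RNAs Neat1 and Malat1, of 66 and 297 cells, had Vegfa at 133 and 82.3 CPM and Adm at 110 and 17.2. Neutrophil-like cells had Vegfa at 46.0 and 47.8, and macrophage-like cells had 3 and 20 Vegfa UMIs, or 5.48 and 37.0 CPM. The latter were in 2 of 131 control and 5 of 171 treated macrophage-like cells, and after thinning the share was 1.05% and 0.725%. Both macrophage levels were below those of Vegfa in free RNA (55.6 and 39.3).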
